A study of Ovis aries with 14 samples.

Results

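The genes that carry Wnt signals were examined in whole ovaries of Suffolk sheep exposed before birth to testosterone. The set took every gene whose deposited name marks it as a Wnt ligand (WNT), a Frizzled receptor (FZD), the co-receptor LRP5 or LRP6, an R-spondin (RSPO1 to RSPO4) or R-spondin receptor (LGR4 to LGR6), a secreted antagonist (SFRP, DKK, WIF1), AXIN1 or AXIN2, CTNNB1, ZNRF3, RNF43, LEF1 or a TCF7 gene. By that rule 39 of the 17323 genes in the 3 deposited tables were members: 11 ligands, 5 genes of the R-spondin branch, 8 receptors, 8 secreted antagonists, and 7 genes for beta-catenin, its scaffold and its nuclear partners. All 39 were in the fetal table and 36 in each adult table. WNT3, WNT7A and WNT10A were in the fetal table alone, so they were not analysed in adults. RSPO4, LGR6, LRP5, ZNRF3 and RNF43 were under those names in none of the tables used here.

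The sheep were wild type and fell into 4 groups: 3 control and 3 testosterone fetuses at day 90 of gestation, and 4 control and 4 testosterone adults at year 2. The sample labels give those adult numbers, whereas the text on the series compares 3 adult controls with 4 treated adults; all 4 labelled controls were used. Mothers of the testosterone groups received testosterone propionate in cottonseed oil by intramuscular injection 2 times a week from day 30 to day 90, so the fetal ovaries were collected at the end of treatment and the adult ovaries long after it. The labels number the animals without naming mothers or litters, so a p-value here speaks of the spread among these animals and not of independent pregnancies. Each library is RNA of a whole ovary, in which fewer cells of a type and less RNA per cell cannot be told apart. Values are normalized counts, that is, reads per gene scaled to the depth of the library and not to gene length, so levels are compared between libraries and not between genes.

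Wnt proteins are secreted by cells and bind a Frizzled receptor together with LRP6 on a neighbouring cell. That stops a complex built on AXIN from destroying beta-catenin, which then enters the nucleus and works with LEF1 and the TCF7 family to switch genes on. R-spondins bind LGR receptors and keep Frizzled on the cell surface, while SFRP, WIF1 and DKK proteins capture the ligands or block LRP6. WNT4, RSPO1 and beta-catenin are known as the signals that set the somatic cells of the fetal gonad on the ovarian path. In adult ovaries, Wnt genes have been studied in granulosa cells, the corpus luteum and the surface epithelium.

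Reads recovered from the deposited values came to 22577382 to 33417500 per library. To set fetal and adult libraries side by side, reads of the 3 separately normalized tables were joined by gene and scaled together, for the 15175 genes present in all of them; fetal values on that common scale are 0.888 to 0.902 times the deposited ones. Oocyte and germ cell markers (8 of 13 listed) summed to 18273 to 39925 in the fetal libraries and to 495 to 1906 in the adults, with BMP15 at 0 in 1 adult library. The luteal hormone gene OXT was at 105432, 122264 and 68252 in adult control 6, testosterone 4 and testosterone 7, and at no more than 87.5 in the other 5 adult libraries. Adult control 4 had the highest marker sums of 3 lists. Smooth muscle markers summed to 886263 there and to 65987 to 232908 in the other 7 adult libraries, and endothelial markers to 102171 against 13837 to 51415. Stromal markers summed to 1098809 against 212578 to 712822, and most of that sum was COL1A1, at 966997. DCN, LUM and PDGFRA of the stromal list were not highest there. DCN was at 114421 (127300 in testosterone 7), LUM at 11659 (60304 in testosterone 7) and PDGFRA at 5732 (14709 in testosterone 5). The somatic markers FOXL2, AMH, CYP19A1 and LHCGR were not listed by name.

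Wnt genes passed the test between ages and not between treatments. Between fetal and adult controls, 11 of 36 Wnt genes passed the test (4 higher and 7 lower in adults), beside 28.3% of all genes tested (13.3% higher and 14.9% lower). Between fetal and adult testosterone libraries, 12 of 36 passed (4 higher and 8 lower), beside 22.2% of all genes (9.8% higher and 12.4% lower). The test is limma on log2 of the normalized count plus 1, with adjusted p under 0.05 over all genes. Both age comparisons come from 1 fit in which all 4 groups share 1 estimate of spread. A library of one arm can thus move the p-value of the other arm, but not its difference. The share of Wnt genes that passed lay near that of all genes in controls. In testosterone libraries it lay above that of all genes with limma and with edgeR (30.6% beside 22.6%). With DESeq2 it lay below (27.8% beside 30.3%). The call was made in both arms for 4 higher genes (SFRP4, RSPO3, FZD4 and WNT2; 7.53% of all genes) and 6 lower ones (RSPO1, RSPO2, WNT4, WNT6, LEF1 and FZD2; 10.3% of all genes). Set as all 8 adult against all 6 fetal libraries, 10 of 36 did not overlap, beside 23.4% of all genes: SFRP4, FZD4 and RSPO3 were higher (11.2%), and RSPO1, RSPO2, WNT4, WNT6, WNT9A, LEF1 and FZD2 were lower (12.2%). Without adult control 4, 15 of 36 passed in controls, beside 28.4% of all genes in that fit. The 2 ages also differ in the makeup of the ovary, in its collection and in the table of origin, and these cannot be told apart from age. The sums of the germ cell markers above, and of the luteal markers (6 of 9 listed; 2526 to 3302 in fetuses and 5266 to 274581 in adults), differed between ages as well, and their part in the Wnt values was not tested.

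The R-spondin branch held the lower genes of largest size. RSPO1 (ENSOARG00000019811), the R-spondin of ovary determination, had normalized counts of 1739.6, 1703 and 1775 in fetal controls and 1902, 1482 and 1739 in fetal testosterone libraries. In adults it stood at 258, 40.4, 94.5 and 78.3 in controls 4 to 7 and 27.1, 120.5, 49.8 and 23.8 in testosterone libraries 4 to 7. All 6 fetal libraries were thus above all 8 adult ones, and among adults control 4 was the highest. Its log2 difference, adult minus fetal, was -4.20 (SE 0.58, limma adjusted p = 0.000242) in controls and -5.22 (SE 0.58, limma adjusted p = 5.84e-05) in testosterone libraries.

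RSPO2 (ENSOARG00000015039), an R-spondin that the oocyte makes in mice, had 922, 1013 and 1935 in fetal controls and 819, 528 and 1778 in fetal testosterone libraries, against 6.48, 25.8, 17.1 and 25.3 in adult controls and 4.52, 17.1, 15.3 and 2.51 in adult testosterone libraries. The lowest fetal value, 528, lay far above the highest adult value, 25.8, which itself rests on few reads. The log2 difference was -6.12 (SE 0.65, limma adjusted p = 3.77e-05) in controls and -6.72 (SE 0.65, limma adjusted p = 2.37e-05) in testosterone libraries. Within the fetal groups, RSPO2 was highest in control 3 and testosterone 3. Of the 8 germ cell and oocyte markers listed, the 4 oocyte genes BMP15, GDF9, ZP2 and ZP4 were also highest in those libraries, ZP4 at 19506 and 13775 against 2332 to 6349 in the other 4. The other 4 markers, DDX4, MAEL, SMC1B and SYCP3, were lower in control 3 than in controls 1 and 2, DDX4 at 3315 against 3949 and 5899. The part of these markers in the RSPO2 values was not tested.

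RSPO3 (ENSOARG00000007731), the third R-spondin, went the other way. It was at 230.4, 158 and 276 in fetal controls and 312, 352 and 366 in fetal testosterone libraries, and at 1229, 1134, 662 and 1179 in adult controls and 1855, 3112, 721 and 380.1 in adult testosterone libraries. Every adult library was above every fetal one, though adult testosterone 7 at 380.1 was close to the highest fetal value of 366. The log2 difference was 2.24 (SE 0.55, limma adjusted p = 0.00932) in controls. In testosterone libraries it was 1.71 (SE 0.55, limma adjusted p = 0.0408). Leaving out any fetal testosterone library, or adult testosterone 4 or 5, ended that call (limma adjusted p from 0.0744 to 0.12). It also ended when any fetal control or adult control 5 was left out (limma adjusted p from 0.0513 to 0.056). Those controls are not in this difference, which stayed at 1.71, and they act only through the shared spread.

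LGR5, a receptor for R-spondins that marks progenitor cells of the ovarian surface in mice, was at 30.6, 23.7 and 28.8 in fetal controls and 29.1, 21.6 and 31.5 in fetal testosterone libraries. Adult controls had 72.6, 1.12, 5.4 and 5.76 and adult testosterone libraries 3.39, 4.02, 4.07 and 1.25. Control 4 was thus above every fetal library, and the other 7 adult libraries, with few reads each, were below all of them. The log2 difference was -1.65 in controls (SE 0.89, limma adjusted p = 0.183), and -2.66 (SE 0.54, limma adjusted p = 0.00363) without adult control 4. In testosterone libraries it was -2.82 (SE 0.89, limma adjusted p = 0.0386), with a shared spread that includes adult control 4. That call ended when any fetal testosterone library or adult testosterone 4, 6 or 7 was left out (limma adjusted p from 0.0531 to 0.12). It also ended when any fetal control was left out (limma adjusted p from 0.0542 to 0.0551), while the difference stayed at -2.82. The call was made in 11 of the 21 settings with a value. LGR4, a second R-spondin receptor, ranged from 665 to 876 in fetuses and from 678 to 1365 in adults and was not called.

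**Figure D1:**
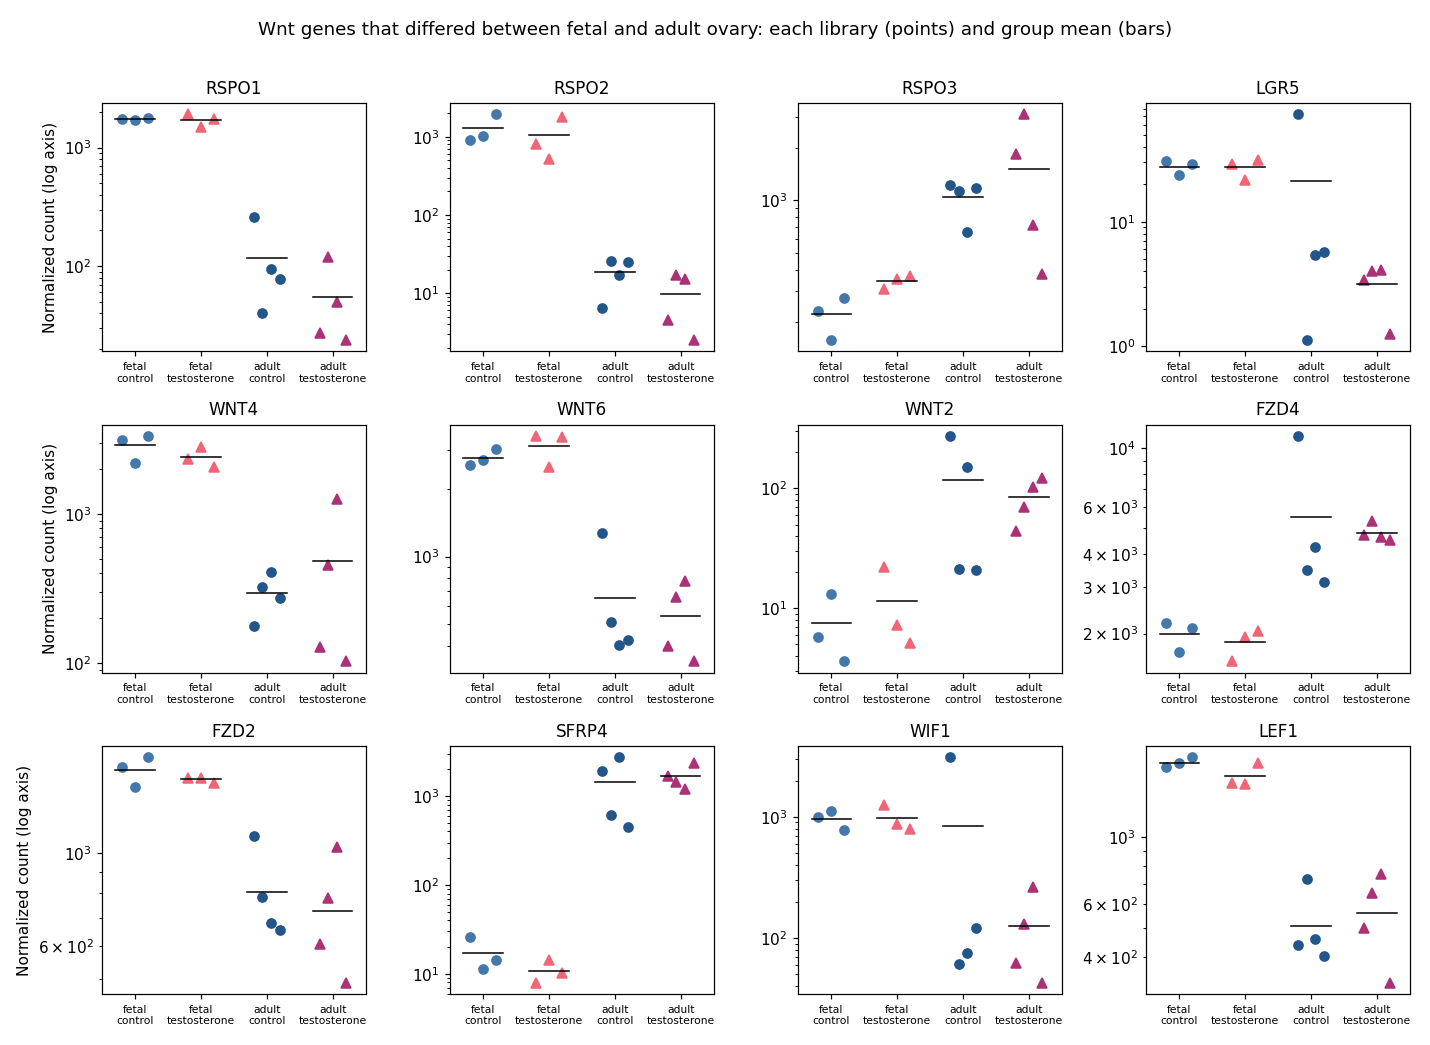
Normalized counts of 12 Wnt genes (log axes) in each library (points) of the 4 groups, with bars at the group means. The 6 fetal libraries lie above the 8 adult libraries for RSPO1, RSPO2, WNT4, WNT6, FZD2 and LEF1 and below them for RSPO3, FZD4 and SFRP4; adult control 4 is the highest adult point for LGR5 (72.6), FZD4 (11156) and WIF1 (3113).

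Among the 8 ligands in all tables, WNT4 and WNT6 were lower in adults, WNT2 was higher, and the other 5 were not called in either arm. WNT4 (ENSOARG00000008075), the ligand that marks the fetal ovary, was at 3134, 2180.2 and 3334 in fetal controls and 2332, 2809 and 2052 in fetal testosterone libraries. Adult controls had 179, 325, 408 and 275 and adult testosterone libraries 128, 457, 1253 and 103. The ages did not overlap, and the highest adult value, in testosterone 6, stood at 1253 against 457 for the next. The log2 difference was -3.31 (SE 0.66, limma adjusted p = 0.00296) in controls and -3.01 (SE 0.66, limma adjusted p = 0.00659) in testosterone libraries.

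WNT6, another ligand, was at 2562, 2709 and 3019 in fetal controls, 3465, 2516 and 3422 in fetal testosterone libraries, 1273, 508, 404 and 424 in adult controls and 397, 662, 776 and 340.0 in adult testosterone libraries. All fetal values were above all adult ones, with log2 differences of -2.25 (SE 0.38, limma adjusted p = 0.000925) in controls and -2.59 (SE 0.38, limma adjusted p = 0.000459) in testosterone libraries. WNT2, a ligand described in granulosa cells, was low in fetuses, at 5.74, 13.2 and 3.6 in controls and 22, 7.19 and 5.11 in testosterone libraries. It was at 275, 21.3, 151 and 20.7 in adult controls and 44.1, 70.3, 104 and 122 in adult testosterone libraries, so fetal testosterone 1 overlapped adult controls 5 and 7. Its log2 difference was 3.14 (SE 0.87, limma adjusted p = 0.0178) in controls and 2.94 (SE 0.87, limma adjusted p = 0.0295) in testosterone libraries. The first call ended without fetal control 1 or 3 (limma adjusted p = 0.0586 and 0.0779), and the second without fetal testosterone 2 or 3 or adult testosterone 6 or 7 (limma adjusted p from 0.0579 to 0.123).

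WNT5A, best known for signals that do not use beta-catenin, was at 5322, 4174 and 4825 in fetal controls and 3043, 5031 and 4883 in fetal testosterone libraries, and at 2139, 2900.4, 2162 and 2726 in adult controls and 1174, 3920.0, 5219 and 1849 in adult testosterone libraries. The 4 adult controls were below the 3 fetal controls, but the difference did not pass (log2 difference -0.95, SE 0.40, limma adjusted p = 0.0953), and adult testosterone 5 and 6 lay in the fetal range. WNT2B was at 1262, 905 and 1368 in fetal controls and at 1102, 834 and 1293 in fetal testosterone libraries. In adults it was at 594, 824, 1189 and 564 in controls and at 1571, 860.3, 627 and 440.4 in testosterone libraries, with wide overlap. WNT9A ranged from 85.1 to 126 in fetuses and from 23.7 to 80.6 in adults. It did not overlap between ages and still missed the threshold in both arms (limma adjusted p = 0.0682 and 0.093). WNT11 and WNT5B overlapped between ages.

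Of the 8 receptors, FZD4 was higher and FZD2 lower in adults, in both arms. FZD4 (ENSOARG00000004175), a Frizzled whose loss impairs the corpus luteum in mice, was at 2197, 1698 and 2095 in fetal controls and 1569.7, 1939 and 2053 in fetal testosterone libraries. It was at 11156, 3466, 4233 and 3137 in adult controls and 4696, 5324, 4633 and 4510.2 in adult testosterone libraries. No fetal library reached the lowest adult value, and the adult testosterone libraries lay close together. The log2 difference was 1.26 in controls (SE 0.33, limma adjusted p = 0.0139) and 1.38 in testosterone libraries (SE 0.33, limma adjusted p = 0.0112). It was 0.85 (limma adjusted p = 0.0021) in controls without adult control 4. The calls ended without fetal control 2 in controls (limma adjusted p = 0.0642) and without fetal testosterone 1 in testosterone libraries (limma adjusted p = 0.0567).

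FZD2, a Frizzled that can signal with or without beta-catenin, was at 1600.1, 1439 and 1692 in fetal controls, 1508, 1513 and 1472 in fetal testosterone libraries, 1096, 785, 680.2 and 655 in adult controls and 605, 778, 1033 and 489 in adult testosterone libraries. The ages did not overlap, and the log2 differences were -1.0 (SE 0.24, limma adjusted p = 0.00814) in controls and -1.10 (SE 0.24, limma adjusted p = 0.00605) in testosterone libraries. FZD1, a receptor for beta-catenin signals in granulosa cells, was at 737, 746 and 806 in fetal controls and at 848, 791 and 895 in fetal testosterone libraries. Adult values were 4005, 993, 1269 and 572 in controls and 1015, 1347, 1473 and 867 in testosterone libraries, so adult control 7 fell below every fetal library and control 4 stood far above the rest. FZD1 was not called by limma (limma adjusted p = 0.232 in controls). LRP6, the co-receptor, ranged from 2698 to 3420.0 in fetuses and from 922 to 4798 in adults. FZD5, FZD6, FZD7, FZD9 and LRP6 also overlapped between ages and were not called.

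The secreted antagonists held the largest rise of the set. SFRP4 (ENSOARG00000008899), a decoy that binds Wnt ligands and has been described in granulosa and luteal cells of rodents, was at 25.8, 11.4 and 14.4 in fetal controls and 7.92, 14.4 and 10.2 in fetal testosterone libraries. It was at 1938, 617, 2732 and 450.3 in adult controls and 1666, 1434, 1206 and 2351 in adult testosterone libraries, so the lowest adult library, control 7, was far above the highest fetal one. The group means rose from 17.2 ± 7.6 (SD, n = 3) to 1435 ± 1092 (SD, n = 4) in controls and from 10.8 ± 3.28 (SD, n = 3) to 1664 ± 495 (SD, n = 4) in testosterone libraries. The log2 difference was 6.0 (SE 0.55, limma adjusted p = 1.4e-05) in controls and 7.13 (SE 0.55, limma adjusted p = 4.81e-06) in testosterone libraries.

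WIF1, which binds Wnt ligands outside the cell, was named here after its values were seen. It was at 1003, 1111 and 778 in fetal controls and 1259.8, 869 and 790.1 in fetal testosterone libraries, and at 3113, 60.6, 74.7 and 121 in adult controls and 62.2, 132, 263 and 42.7 in adult testosterone libraries. Adult control 4 alone was above the fetal range, and the other 7 adult libraries were below it. The log2 difference in testosterone libraries was -3.27 (SE 1.08, limma adjusted p = 0.0451), with a shared spread that includes adult control 4. With edgeR the adjusted p was 0.0849. Leaving out any fetal testosterone library, or adult testosterone 4, 5 or 7, ended the call (limma adjusted p from 0.0555 to 0.136). It also ended when any fetal control was left out (limma adjusted p from 0.0608 to 0.0617), while the difference stayed at -3.27. The call was made in 12 of the 22 settings with a value. In controls the log2 difference was -2.22 (limma adjusted p = 0.14), and -3.53 (limma adjusted p = 0.000604) without adult control 4.

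DKK1, which blocks LRP6, was at 22, 31.6 and 60.3 in fetal controls and at 19.4, 34.2 and 40 in fetal testosterone libraries. In adults it was at 257, 11.2, 18 and 23 in controls and at 5.65, 32.1, 20.3 and 27.6 in testosterone libraries. Its kin DKK3, which acts little on LRP6, was at 1391, 1298 and 1785 in fetal controls and at 1358, 1533 and 1824 in fetal testosterone libraries, then at 5340.3, 1797, 2002 and 890.3 in adult controls and at 947, 1313, 1165 and 1100.3 in adult testosterone libraries. Both overlapped between ages, with adult control 4 above all other libraries. SFRP1, SFRP2, SFRP5 and DKK2 were not called either.

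Downstream of the receptors, LEF1 was lower in adults in both arms. LEF1 (ENSOARG00000008064), a nuclear partner of beta-catenin, was at 1701, 1749 and 1834 in fetal controls and 1502, 1499 and 1756 in fetal testosterone libraries, and at 438, 723, 459 and 404 in adult controls and 499.8, 649, 754 and 329 in adult testosterone libraries. The ages did not overlap, and the log2 difference was -1.84 (SE 0.26, limma adjusted p = 0.000328) in controls and -1.57 (SE 0.26, limma adjusted p = 0.00135) in testosterone libraries. AXIN2, a feedback target that rises with beta-catenin activity in many tissues, was at 1236, 1298 and 1114 in fetal controls and at 1055, 1164 and 1223 in fetal testosterone libraries. Adult values were 619.7, 688, 660.4 and 809.6 in controls and 456, 845, 1242 and 897 in testosterone libraries, so adult testosterone 6 reached the fetal range. In controls AXIN2 was lower in adults by a log2 difference of -0.81 (SE 0.26, limma adjusted p = 0.033), a call that ended without any fetal control or without adult control 4, 5 or 6 (limma adjusted p from 0.0569 to 0.107). In testosterone libraries the difference was -0.50 (SE 0.26, limma adjusted p = 0.183).

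CTNNB1, which encodes beta-catenin, was at 15675, 14066 and 17198 in fetal controls, 12706, 15955 and 15908 in fetal testosterone libraries, 16249, 18468, 19915 and 15315 in adult controls and 18742, 17628, 15891 and 17108 in adult testosterone libraries. The groups overlapped, and the 95% interval of the log2 difference in controls ran from -0.15 to 0.47. AXIN1, TCF7, TCF7L1 and TCF7L2 were not called. Leaving out adult control 4 raised the count in controls to 5 higher and 10 lower, beside 13.1% and 15.2% of all genes in that fit: LGR5, WIF1, SFRP1, WNT9A and FZD9 joined, and AXIN2 was lost.

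**Figure D2:**
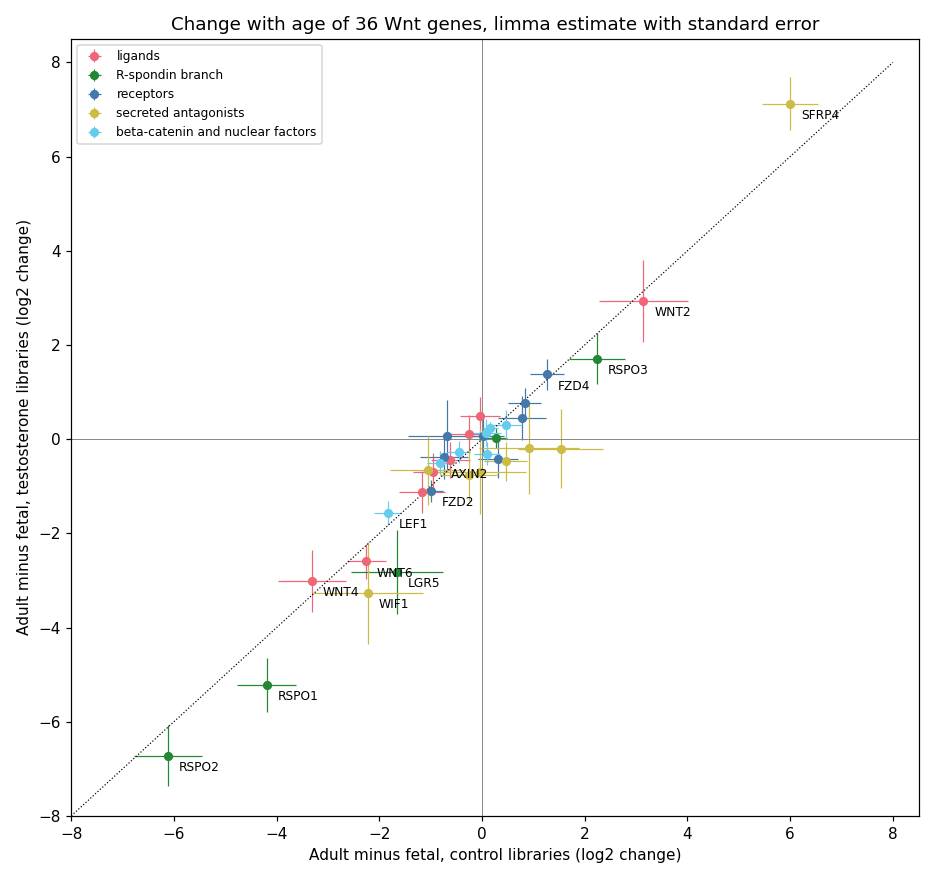
Log2 difference between adult and fetal libraries for 36 Wnt genes in controls (horizontal) and testosterone libraries (vertical), with standard errors and a dotted line of equality, coloured by role. SFRP4 stands at 6.0 and 7.13, RSPO2 at -6.12 and -6.72, and RSPO1 at -4.20 and -5.22, and 28 of the 36 genes have the same sign in both arms, beside 85.6% of all genes.

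In the fetal ovary, testosterone changed no Wnt gene past the threshold. None of 39 was called by limma, beside 0.0182% of all genes tested (3 of 16513), nor by edgeR or DESeq2. With an unadjusted p under 0.05, each of the 3 tools gave 1 of 39, beside 9.76% of all genes with limma, 9.74% with edgeR and 1658 of 16513 genes with DESeq2. RSPO3 was that gene with each tool. In the deposited fetal values it stood at 258, 176 and 306 in controls 1 to 3 and 347, 396 and 406 in testosterone libraries 1 to 3. Every testosterone library was above every control; 16.3% of all genes had groups that did not overlap, and RSPO3 was the 1 such gene of 39 here. The means were 246 ± 65.6 in controls and 383 ± 31.6 after testosterone (SD, n = 3 each), a log2 difference of 0.67 (SE 0.21, 95% interval 0.18 to 1.15, limma adjusted p = 0.384, DESeq2 adjusted p = 0.163).

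The other fetal genes of small p were also far from the threshold. FZD5, a Frizzled receptor, was at 160.3, 242 and 243 in controls and 156, 100.3 and 178 in testosterone libraries, where control 1 lay inside the testosterone range (log2 difference -0.58, SE 0.27, limma adjusted p = 0.536). WNT3, a ligand of the beta-catenin branch, was at 40.6, 54.8 and 88.9 in controls and at 25.5, 44.6 and 42.5 in testosterone libraries (log2 difference -0.66, SE 0.37, limma adjusted p = 0.597). LEF1 was at 1902, 1951 and 2035 in controls and 1672, 1689 and 1948 in testosterone libraries, and its log2 difference was -0.15. TCF7, a second nuclear partner, was at 323, 321 and 302 in controls and at 251, 208 and 325 in testosterone libraries, with a log2 difference of -0.29, and FZD1 at 824, 832 and 894 in controls and at 944, 890.4 and 992 in testosterone libraries, with one of 0.15. In each of these 5 genes the 2 groups overlapped.

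By role, fetal log2 differences ran from -0.66 to 0.47 for the 11 ligands, -0.41 to 0.67 for the R-spondin branch and -0.58 to 0.22 for the receptors. They ran from -0.60 to 0.38 for the antagonists, and from -0.29 to 0.10 for beta-catenin, its scaffold and its nuclear partners. The sign was positive for 13 genes and negative for 26, and the median was -0.072, beside -0.019 for all genes. That split moved with single libraries. Without fetal testosterone 2, 20 of 39 were positive (median 0.0037), and without fetal control 2, 9 of 38 were (median -0.141). For several genes the interval was narrow: RSPO1 lay between -0.27 and 0.21, FZD2 between -0.28 and 0.14, AXIN2 between -0.32 and 0.16, and CTNNB1 between -0.34 and 0.19 (95% intervals on the log2 scale). WNT4, at a log2 difference of -0.25, had an interval from -0.66 to 0.16. In WNT7A and WNT10A, the other ligands seen in the fetal table alone, the 2 groups overlapped. WNT7A was at 296, 436 and 446 in controls and at 359.7, 185 and 441 in testosterone libraries. WNT10A was at 82.3, 87.1 and 88 in controls and at 79.4, 63.8 and 108 in testosterone libraries.

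In adults, no Wnt gene passed in any of the 3 fits. The first adult table holds controls and testosterone libraries 4, 5 and 6, and the second holds controls 4, 6 and 7 and testosterone libraries 5, 6 and 7. They share 4 libraries, so neither is a replicate of the other. Control 6 had 26389902 reads in the first and 33417500 in the second, and the joined fit took the deeper. None of 36 was called by limma in the first (0.00631% of all genes), the second (0.00623%) or the fit of all 8 libraries on the common scale (0.0127%), nor by edgeR or DESeq2. With an unadjusted p under 0.05, limma gave 1 of 36 in the first table, beside 0.637% of all genes, 0 in the second, beside 0.486%, and 0 in the joined fit, beside 0.812%. In the same order edgeR gave 1, 2 and 2 of 36, beside 1.18%, 1.13% and 1.56% of all genes, and DESeq2 gave 1, 2 and 1, beside 2.08%, 1.89% and 1.96%.

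DKK3 had the smallest p in the first table, at 4826, 1634 and 1801 in controls and 851, 1195 and 1059 in testosterone libraries. Its groups did not overlap there, which held for 3.57% of all genes, and the log2 difference was -1.24 (SE 0.43, limma adjusted p = 1.0, unadjusted 0.0255). On the common scale, adult control 7 at 890.3 was below all 4 testosterone libraries, and the joined difference was -0.86 (95% interval -1.91 to 0.20), or -0.39 without control 4. In the second table AXIN2 was higher in the testosterone libraries, at 794, 1149 and 814 against 568, 602 and 739.9 in controls (log2 difference 0.52, SE 0.27). LGR5 was lower there, at 3.77, 3.76 and 1.14 against 66.5, 4.92 and 5.26. These 2 genes had groups that did not overlap, as 2.61% of all genes did, but on the common scale the low values of testosterone 4 for AXIN2 and control 5 for LGR5 closed both gaps. FZD5 had the next smallest p in the first table, at 32.8, 145 and 84 in controls and 70.2, 222 and 328 in testosterone libraries, and its groups overlapped (log2 difference 1.21, SE 0.75). RSPO3 had a log2 difference of 0.71 (SE 0.55) there and overlapped too. FZD6, a Frizzled receptor, was at 1157, 864 and 463 in the second table's controls and 395, 275 and 535 in its testosterone libraries (log2 difference -1.0, SE 0.43).

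In the joined fit, SFRP5, an antagonist, was at 115, 6.73, 36.9 and 9.21 in controls and 2.26, 22.1, 11.2 and 2.51 in testosterone libraries (log2 difference -1.69, 95% interval -4.05 to 0.67; -0.94 without control 4). DKK2, a second antagonist, was at 1361, 93.1, 68.4 and 78.3 in controls and at 67.8, 97.4, 72.2 and 32.6 in testosterone libraries, a log2 difference of -1.35 that came to -0.33 without control 4. RSPO1 and RSPO2, with the library values above, had log2 differences of -1.06 (95% interval -2.61 to 0.50; -0.58 without control 4) and -1.02 (95% interval -2.74 to 0.70; -1.43 without control 4). WNT5B, a ligand, was at 149, 122, 226 and 80.6 in controls and 163, 132, 226 and 364 in testosterone libraries (log2 difference 0.60, 95% interval -0.37 to 1.56). No gene of the 36 had groups of 4 that did not overlap, beside 0.717% of all genes.

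Adult intervals were wide. The median standard error of the log2 difference was 0.46 over the 36 genes, against 0.20 over the 39 in fetuses. Signs were even, with 17 positive and 19 negative and a median of -0.021, beside -0.0098 for all genes. The interval for WNT4, from -1.63 to 1.74, spans large differences in both directions, while that for CTNNB1 ran from -0.39 to 0.38. The authors' deposited table of each comparison gives an adjusted p for 36 of 39 Wnt genes in fetuses (not SFRP4, SFRP5 or WNT2) and for 34 of 36 in each adult table (not DKK2 or WIF1). Of those with a value in the authors' deposited table none passed, and the smallest was 0.163 in fetuses and 1.0 in each adult table.

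**Figure D3:**
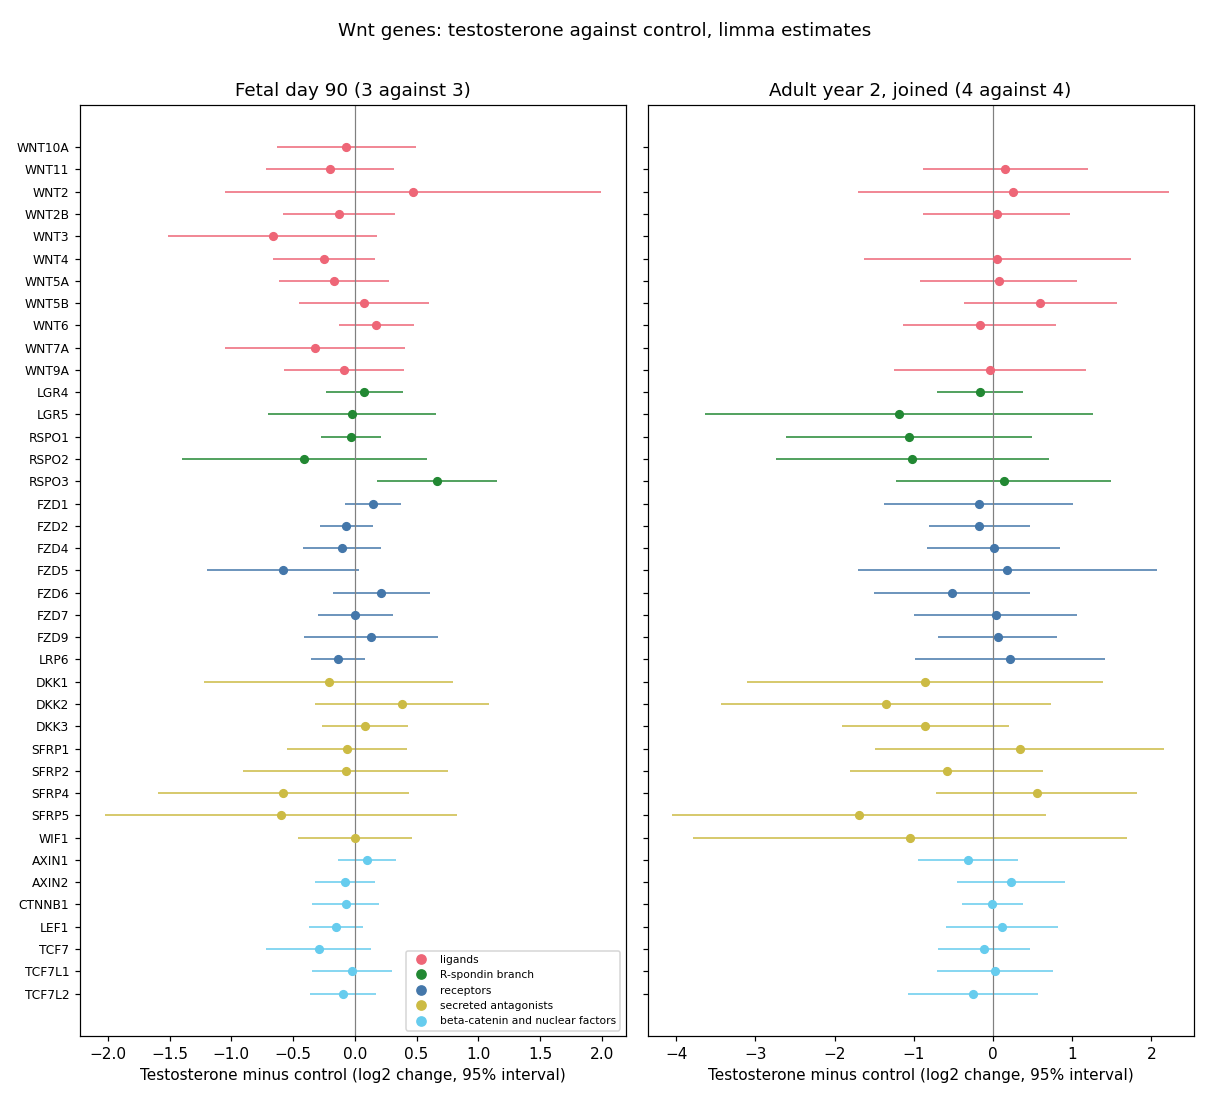
Log2 difference, testosterone minus control, with 95% intervals for each Wnt gene in fetuses (left, 39 genes) and in the 8 adult libraries (right, 36 genes), coloured by role; the horizontal scales differ. In the fetal panel RSPO3 (0.67, interval 0.18 to 1.15) is the gene whose interval leaves out 0 before adjustment, and in the adult panel every interval spans 0.

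The testosterone difference itself was compared between ages over all 14 libraries. None of 36 Wnt genes passed, beside 0.00659% of all genes, and none had an unadjusted p under 0.05 with limma, beside 1.57% of all genes (1 with edgeR, beside 2.14%, and 0 with DESeq2, beside 3.01%). The smallest p belonged to DKK3 (adult minus fetal log2 difference -0.94, SE 0.59), DKK2 (-1.73, SE 1.18) and SFRP4 (1.13, SE 0.78). FZD6 (-0.74, SE 0.56), RSPO1 (-1.02, SE 0.82) and AXIN1 (-0.41, SE 0.35) came next. Without adult control 4, the estimates for DKK3 and DKK2 were -0.47 and -0.71. FZD6 was at 487, 643 and 543 in fetal controls and at 521, 754 and 674 in fetal testosterone libraries. In adults it was at 1263, 367, 947 and 507 in controls and at 707, 421, 297 and 589.7 in testosterone libraries. AXIN1 was at 2514, 2103 and 2249 in fetal controls and at 2681, 2320.4 and 2338 in fetal testosterone libraries, then at 3034, 2698, 1775 and 2447 in adult controls and at 1581, 2286, 2962 and 1393 in adult testosterone libraries.

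Wnt genes differed from adult to adult within a group. The median ratio of the highest to the lowest library was 3.07 in adult controls and 2.75 in adult testosterone libraries over the 36 genes, beside 2.14 and 1.90 over all genes. Without control 4 the ratio in adult controls was 1.78, beside 1.69 over all genes. In fetal controls and fetal testosterone libraries it was 1.36 and 1.37, beside 1.23 and 1.27. Adult control 4 was the highest library for 19 of 36 Wnt genes, beside 23.4% of all genes. It was more than 2 times every other adult library for 10 of 36, beside 5.78% of all genes. Among them were DKK2 at 1361 (97.4 or less elsewhere in adults), WIF1 at 3113 (263 or less) and DKK1 at 257 (32.1 or less). In the same library DES, a muscle filament gene, was at 105227 (8923 or less in the other 7) and MYH11, the smooth muscle myosin, at 305554 (122417 or less), and all 6 smooth muscle markers were highest there. All 7 endothelial markers were highest there too, VWF at 60963 (24676 or less in the other 7), as was the collagen gene COL1A1 at 966997 (580846 or less). The other stromal markers listed, DCN, LUM and PDGFRA, were not highest there. Granulosa markers (6 of 9 listed) had their lowest adult sum in control 4, at 6804 against 7862 to 32771 in the other 7. FSHR (5.19), FST, GJA1 and INHA (148) of that list were lowest there. INHBA was highest there, at 2599, and HSD17B1 was not lowest. The part of these markers in the Wnt values of this library was not tested. FZD5 and FZD9 were at their lowest of the 8 adults in the same library, at 36.3 and 121.

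Against the luteal marker OXT, Wnt genes were ordered no more often than genes in general. The 3 libraries high in OXT were the lowest 3 of the 8 for SFRP2, DKK2, AXIN1 and WNT6, that is 4 of 36 genes, beside 11.5% of all genes. They were the highest 3 for 0 of 36, beside 14.1% of all genes.

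**Figure D4:**
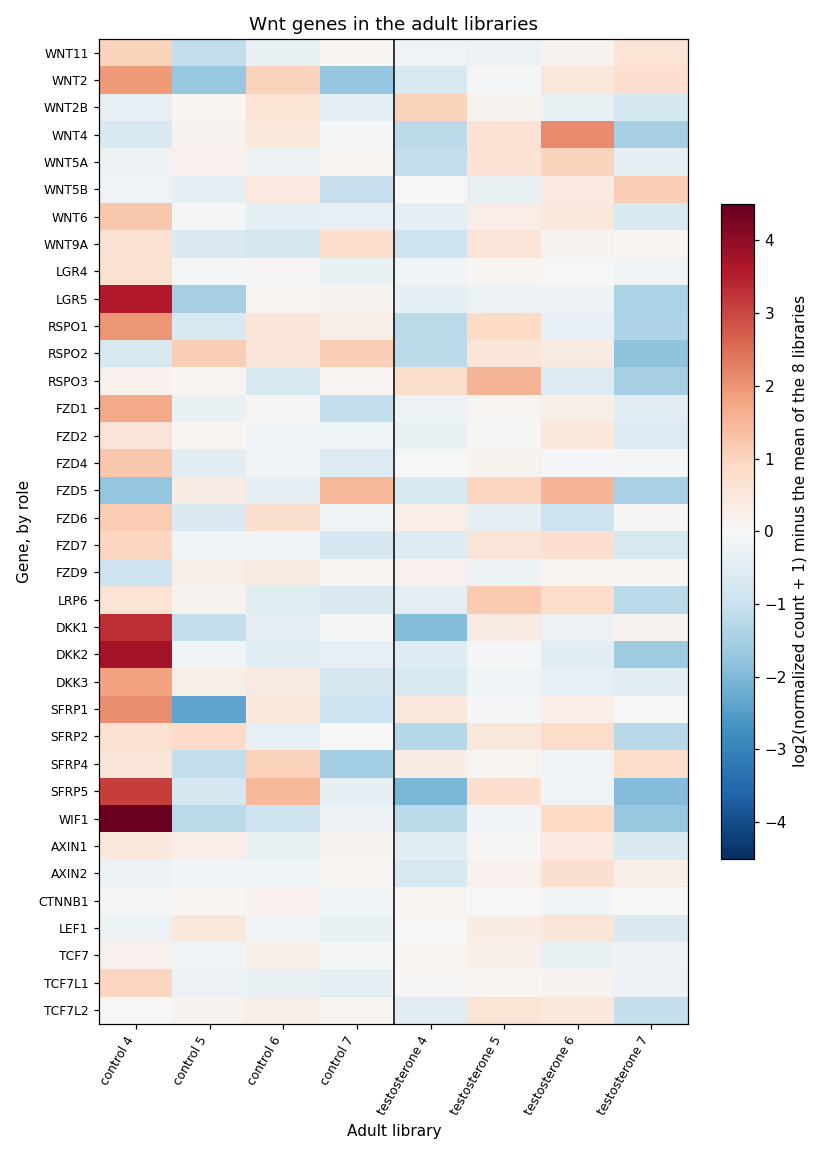
Log2 of the normalized count plus 1 of 36 Wnt genes (rows, by role) in the 8 adult libraries (columns), relative to each gene's mean over those libraries; red is above and blue below the mean. Control 4 carries the strongest red, up to 4.45 for WIF1, and for no gene do the 4 controls lie all above or all below the 4 testosterone libraries.

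The rest of the pathway was followed in 7 lists of 79 genes for secretion, co-receptors, other antagonists and feedback, the destruction complex, nuclear partners, planar polarity and often reported targets. These lists were tested with limma alone, not with edgeR or DESeq2. Of the 67 tested in fetuses, 0 passed with testosterone and 9 (13.4%) had an unadjusted p under 0.05, beside 9.76% of all genes. SOSTDC1, a secreted Wnt and BMP antagonist, had the smallest p, with 30.5 ± 5.63 in controls and 84.2 ± 23.7 after testosterone (SD, n = 3 each; log2 difference 1.41, SE 0.31, limma adjusted p = 0.279). FST, which encodes follistatin, was at 161 ± 18.1 and 247 ± 28.6 (log2 difference 0.61, SE 0.17, limma adjusted p = 0.333). In the joined adult libraries 0 of 65 passed.

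With age, 4 of the 65 listed genes were higher in adult controls (6.15%, beside 13.3% of all genes) and 15 were lower (23.1%, beside 14.9%), with a median log2 difference of -0.39, beside 0.03 for all genes. In testosterone libraries 2 were higher (3.08%, beside 9.8%) and 11 lower (16.9%, beside 12.4%). GPC4, a glypican that carries Wnt proteins at the cell surface, fell from 3326 ± 207 to 620.4 ± 203 in controls (log2 difference -2.49, SE 0.28, limma adjusted p = 5.85e-05). WLS, which escorts Wnt proteins to the surface, fell in controls (log2 difference -0.83, limma adjusted p = 0.0157), and in testosterone libraries the difference was -0.50 (limma adjusted p = 0.128). The feedback inhibitors APCDD1 and NKD1 were lower in both arms, with log2 differences of -1.53 and -1.88 in controls and -1.76 and -2.27 in testosterone libraries. So were NLK, a kinase that acts on TCF and LEF proteins (-1.66 and -1.56), and TLE4, a co-repressor (-1.84 and -1.48). Among often reported targets, MYC was higher in both arms (1.90 and 1.33). FST, which is also on the granulosa marker list, was called in controls at 3.44. Its adult control values ran from 191, in control 4, to 5289.7. The part of granulosa cells in that difference was not tested.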

How the data were processed

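RNA of 14 whole ovaries (4 groups) was sequenced, and 2 adult tables and 1 fetal table were analysed. The submitters' processing notes list Trimmomatic 0.36 and STAR 2.5.2b. Genome build, annotation and counter: not given in the sources used here, so no coordinates are printed. The signal values the authors deposited are read counts per gene divided by a size factor of each library. The log2 fold changes and p-values in the same deposited tables come from the authors' DESeq2 comparisons, per the series' design text. Each table was normalized on its own.

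Reads were recovered by dividing each library by its smallest step, and 100% of values came out whole within 0.01. Values were analysed as log2(value + 1) where a gene averaged 10 or more, with limma 3.58.1 (trend) in R 4.3.3 and Benjamini-Hochberg adjustment over all genes at 0.05. Fold changes on this scale understate those of low genes. For fits over both ages or all 8 adults, recovered reads were scaled by median-of-ratios size factors; treatment in the joined adults was fitted over 15770 genes. edgeR 4.0.16 and DESeq2 1.42.0 on the recovered reads, pseudocounts of 0.5 and 5, no filter, a mean of at least 50, other scalings, a replicate block and leaving out each library were the alternatives. Joined adults were also fitted with the luteal markers as a covariate, and with a term for the libraries numbered 7. In each of these fits 0 of 36 Wnt genes were called, beside 0.0127% and 0.00634% of all genes. Scripts were tested on simulated data.

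The Wnt genes, pathway lists and marker lists were chosen with earlier results of these data known. Genes described one by one were the 6 with the smallest p in each treatment comparison, up to 8 per direction among those called between ages, and 15 well known members; up to 3 genes were named per pathway list. Likeness of pattern between genes is not reported, since libraries fall apart by age and adult control 4 stands apart. The adult tables share 4 libraries.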

Additional observations from a re-analysis of the deposited data

Results flagged for a closer look

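In groups of 4 adult libraries, a library was picked out where its gap to the nearest other took up nearly the whole range of the group by Dixon's test at its 95% level. Of 72 groups tested, 8 were picked out, where the level of the test is about 1 in 20 for independent groups. Groups of different genes here share the same 4 libraries, so they are not independent. The share picked out over all genes was not computed, so the count is not a result about Wnt genes. Adult control 4 was the highest adult library for 23.4% of all genes. Adult control 4 was high for 7 genes: WIF1 at 3113, DKK2 at 1361, DKK1 at 257, LGR5 at 72.6, FZD4 at 11156, WNT6 at 1273 and TCF7L1 at 1068 normalized counts. In adult control 6, RSPO3 was low, at 662 beside 1134 to 1229 in the other 3 controls. Smooth muscle, endothelial and stromal marker sums were also highest in control 4, and their part in these values was not tested. The stromal sum there was mostly COL1A1, while DCN, LUM and PDGFRA were higher in other adult libraries.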

How the results depend on the processing

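The number of Wnt genes called stayed within 1.5 times the first count in all 128 alternative fits of a comparison, 68 of which left out a library. It ran from 9 to 15 between ages in controls, from 8 to 13 in testosterone libraries, and was 0 in every treatment fit. These fits are not all separate checks. With no filter, the fetal and age fits tested the same genes as the first fit (16513 and 15175). In an age comparison, leaving out a library of the other arm left the differences unchanged and moved only the p-values. For single genes, 519 values with a library left out and 433 under other settings kept direction and side of the threshold. Those totals include treatment values that no setting called, and age values with a library of the other arm left out. They are therefore not a measure of stability. The call was lost for 43 values, 41 of them with a library left out. The other 2 were LGR5 after quantile normalization (limma adjusted p = 0.0593) and WIF1 with edgeR. DKK2 in the first adult table changed sign: its log2 difference ran from -2.18 to 0.049 with a library left out, and 0.049 was the value without adult control 4. The calls for SFRP4, RSPO1, RSPO2, LEF1, WNT4, WNT6 and FZD2 held between ages in both arms in all 23 settings run.

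Same-numbered control and testosterone libraries did not deviate together in all pairs (r = 0.13, 0.0093 and 0.403 in fetuses, and 0.054, 0.295, -0.642 and -0.186 in adults 4 to 7). The labels do not say whether a shared number means a pair or a batch, and these r values cannot settle it. With the replicate block, 0 Wnt genes were called in fetuses, either adult table, the joined adults or the difference between ages.

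Over all genes, DESeq2 called 178 higher and 84 lower in fetuses where limma called 2 and 1, and the block gave 5 and 5. In the joined adults DESeq2 called 2 and 5, edgeR 1 and 0 and the block 0, against 1 and 1. In the first adult table DESeq2 called 2 and 2, edgeR 0 and the block 0, against 1 higher; in the second DESeq2 called 3 and 2, edgeR 0 and the block 0, against 1 higher. For the difference between ages DESeq2 called 3 and 7, against 1 higher. Between ages in controls, the DESeq2 fit had a median of all genes at 0.119, against 0.029, and called 6 Wnt genes higher and 7 lower (36.1%), beside 37.6% of all genes. The cause of these differences was not tested. Setting size factors from the adult libraries alone was chosen after seeing the data and left the count at 0. Genes of few reads, LGR5, RSPO2 and SFRP5 in adults, are limited by depth: 1 read is the value of LGR5 in adult control 5 and testosterone 7.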
